A study of Mus musculus with 4 samples.

Results

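The interferon-inducible GTPases described here are 10 genes chosen by name: the guanylate-binding proteins (GBPs) Gbp2, Gbp3, Gbp4, Gbp5, Gbp6, Gbp7 and Gbp9, and the immunity-related GTPases (IRGs) Irgm1, Igtp (also known as Irgm3) and Iigp1 (also known as Irga6). All 10 were found among the 19737 genes of the deposited matrix, and all 10 passed the filter on low counts that left 14058 genes for testing. Single-cell RNA sequencing covered 74758 sorted brain cells from 20 mice in 5 groups of 4, killed 1 day after a single intravenous dose of 10 mg/kg. The 2 WT;TfRmu/hu groups (here WT mice) received ATV:ISO or ATV:4D9. The 3 AppSAA;TfRmu/hu groups (here AppSAA mice), homozygous for a knock-in of mutant human amyloid precursor sequence, received ATV:ISO, 4D9 or ATV:4D9. Every mouse, controls included, carried TfRmu/hu, a mouse transferrin receptor gene with a human apical domain, which the antibody transport vehicle (ATV) binds. 4D9 is an antibody that activates mouse TREM2, and ATV:ISO is a control antibody on the same vehicle. The deposited annotation names the control arm ATV-DNP02, and reading it as ATV:ISO is an inference from the other arms. The AppSAA mice were males of 8 months, the age of the WT mice could not be settled from the methods, and 1 WT mouse given ATV:ISO was recorded as female. Live CD11b+ cells were sorted and processed in 4 pools, each with 1 mouse from all 5 groups.

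Guanylate-binding proteins and immunity-related GTPases are GTPases that cells make in response to interferons. They are known for cell-autonomous defence: they gather on the vacuoles of intracellular bacteria and parasites, help to break them open and bring inflammasome sensors to the exposed contents. Among the IRGs, Irgm1 and Igtp belong to the regulatory type that sits on host membranes and restrains the effector type, to which Iigp1 belongs. The members lie in clusters of related genes. According to RefSeq on GRCm38.p6, the assembly also called mm10, Gbp5 (chr3:142496934-142522344), Gbp7 (chr3:142530336-142550151), Gbp3 (chr3:142560016-142573213) and Gbp2 (chr3:142620663-142638008) are neighbours on chromosome 3. Gbp9 (chr5:105076464-105110357), Gbp4 (chr5:105115767-105139586) and Gbp6 (chr5:105270702-105295871) are neighbours on chromosome 5, and Irgm1 (chr11:48865245-48871420) and Igtp (chr11:58199556-58207592) are on chromosome 11. Neighbouring members are close in sequence and the libraries read the 3′ end of transcripts, so reads of one may have been dropped or given to another. The values of all the GBPs are uncertain in that respect.

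Upstream sequence is shown for Gbp2 and Gbp7 because they moved in opposite directions in WT mice, and for Irgm1 as an IRG with overlapping matches, which Gbp3 holds too. The RefSeq promoter table held 6 of the 10 members (Gbp2, Gbp3, Gbp5, Gbp7, Irgm1 and Igtp). The core of the interferon-stimulated response element, searched as GAAA, any 2 bases, GAAA on either strand, occurred within 250 bases upstream in 6 of the 7 promoters of these members (Gbp3 has a second start, without a match) and in 2.98% of all 32851 promoters of the table. The gamma-activated site, TTCNNNGAA, which reads the same on both strands, occurred in 3 of the 7 (in Gbp5, Gbp7 and Igtp) and in 7.02% of all promoters. A match describes letters in the window and is not a measured binding site. The windows are the 180 bases before the start of Gbp2 (chr3:142620483-142620662, plus strand), Gbp7 (chr3:142530156-142530335, plus strand) and Irgm1 (chr11:48871421-48871600, minus strand). They are printed 5′ to 3′ on the gene's strand, with the response element core in capitals.
Gbp2: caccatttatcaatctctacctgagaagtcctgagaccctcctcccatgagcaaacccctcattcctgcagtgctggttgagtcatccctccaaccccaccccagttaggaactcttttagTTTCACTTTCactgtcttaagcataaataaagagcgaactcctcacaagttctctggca
Gbp7: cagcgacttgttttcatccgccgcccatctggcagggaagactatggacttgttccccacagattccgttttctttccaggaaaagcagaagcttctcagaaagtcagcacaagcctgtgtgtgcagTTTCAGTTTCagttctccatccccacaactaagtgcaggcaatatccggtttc
Irgm1: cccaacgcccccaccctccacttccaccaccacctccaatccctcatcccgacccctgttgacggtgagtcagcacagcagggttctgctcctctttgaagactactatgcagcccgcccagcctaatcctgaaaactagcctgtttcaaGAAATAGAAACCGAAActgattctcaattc
The match of Gbp2 lies 59 to 50 bases before the start and that of Gbp7 lies 53 to 44 bases before it. In Irgm1 the first of the overlapping matches begins 30 bases before the start, and in Gbp3, whose window is not printed, 45 bases before it.

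Totals ranged from 17150296 to 102446549 UMIs (unique molecules counted) per mouse, over 2193 to 6126 cells. The median UMIs per cell of a mouse lay between 6859 and 11552.5 in the ATV:ISO and 4D9 groups and between 13479 and 17290 in the ATV:4D9 groups. Levels are given as CPM (counts per 1000000 of a library size scaled by the trimmed mean of M values, TMM), so that they are on the scale of the fold changes. The 6 microglial markers together held 12519.6 to 20758 CPM, and the 6 T and NK cell markers at most 1.15 CPM in any mouse. Of those 6 only Ms4a4b was tested, and in AppSAA mice given ATV:4D9 it was called higher than after ATV:ISO (log2 fold change 1.55), than after 4D9 (1.66) and than in WT mice given ATV:4D9 (1.15), at a mean level of 0.460 CPM. The 4 monocyte markers, none of them at 0 in all mice, together held 11.1 to 13.6 CPM in AppSAA mice given ATV:4D9 and 4.17 to 9.81 CPM in the other mice. Of these 4, Plac8 was higher after ATV:4D9 than after ATV:ISO in AppSAA mice (log2 fold change 2.74), while Ly6c2 (-2.76), Chil3 (-1.64) and Ccr2 (-0.86) were lower. Summed markers of other brain cells also moved with the groups, with none at 0 in all mice. The 4 endothelial markers held 39.97 to 51.1 CPM in AppSAA mice given ATV:ISO or 4D9 and 9.94 to 27.6 CPM in the other groups. They did not move together: for AppSAA against WT mice under ATV:ISO, 1 was called higher and 1 lower (log2 fold changes from -0.93 to 3.33). The 3 astrocyte markers held 125 to 143 CPM in WT mice given ATV:ISO and 62.3 to 109.9 CPM elsewhere. Of these 3, 1 was called lower after ATV:4D9 than after ATV:ISO in WT mice and 2 were not called (-0.998 to 0.42). Of the 6 microglial genes, 4 fell with ATV:4D9 in AppSAA and 5 in WT mice, P2ry12 by 1.19 in AppSAA and by 1.38 in WT mice on the log2 scale. The part of these in the results was not tested. A sum over a mouse's cells cannot tell more cells of a type from more RNA per cell.

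In AppSAA mice, all 10 members were higher after ATV:4D9 than after ATV:ISO, where 27.9% of all genes tested were called higher and 55.1% were called at all. The median log2 fold change of the 10 was 1.39, against -0.028 over all genes. Iigp1, an effector IRG that coats parasite vacuoles, measured 2.37, 2.47, 5.70 and 4.18 CPM in the 4 mice given ATV:ISO and 32.3, 34.4, 36.7 and 30.3 CPM in the 4 mice given ATV:4D9. The groups were far apart, and the log2 fold change of Iigp1 was the largest of the 10, 3.14 ± 0.30 (SE, n = 4 mice per group, edgeR adjusted p = 3.88e-08). Gbp2, a GBP that binds pathogen vacuoles, measured 8.31, 6.69, 10.9 and 8.01 CPM after ATV:ISO and 42.6, 34.1, 42.2 and 28.7 CPM after ATV:4D9. Its groups did not overlap, and the log2 fold change was 2.11 ± 0.21 (edgeR adjusted p = 4.49e-08).
Of the chromosome 5 genes, Gbp6 and Gbp4 rose most. Gbp6 averaged 1.74 ± 0.858 CPM (SD, n = 4) after ATV:ISO and 10.4 ± 2.44 CPM after ATV:4D9, a log2 fold change of 2.52 ± 0.30. Gbp4 averaged 1.21 ± 0.617 and 5.24 ± 0.696 CPM (2.05 ± 0.26). Gbp9, which lies beside Gbp4, changed less, from 11.7 ± 1.39 to 18.96 ± 2.90 CPM (0.69 ± 0.12). Gbp5, which promotes NLRP3 inflammasome activation, averaged 12.01 ± 1.80 and 33.3 ± 5.15 CPM (1.46 ± 0.16). Gbp3 averaged 6.99 ± 0.517 and 17.1 ± 2.11 CPM (1.29 ± 0.11).
The regulatory IRGs rose as well, Irgm1 from 28.3 ± 2.92 to 70.9 ± 9.11 CPM (1.33 ± 0.13) and Igtp from 30.8 ± 1.23 to 63.2 ± 9.39 CPM (1.03 ± 0.12). For the 9 members other than Gbp7 the mice of the groups did not overlap, which held for 47.6% of all genes. Gbp7, a GBP known to bring the phagocyte oxidase to vacuoles, measured 34.8, 27.2, 32.2 and 34.6 CPM after ATV:ISO and 39.9, 37.8, 37.8 and 33.4 CPM after ATV:4D9. These groups overlapped, and the log2 fold change was 0.21 ± 0.082 (edgeR adjusted p = 0.0368). The Gbp7 call was lost without AppSAA ATV:ISO mouse 2 or 3 (0.14 and 0.21) and without AppSAA ATV:4D9 mouse 1, 2 or 3 (0.17, 0.20 and 0.20). It was also lost with cells thinned to 3000 UMIs (0.050), with only cells of 1000 to 25000 UMIs (0.17) and with total UMIs as library size (0.13).

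**Figure D1:**
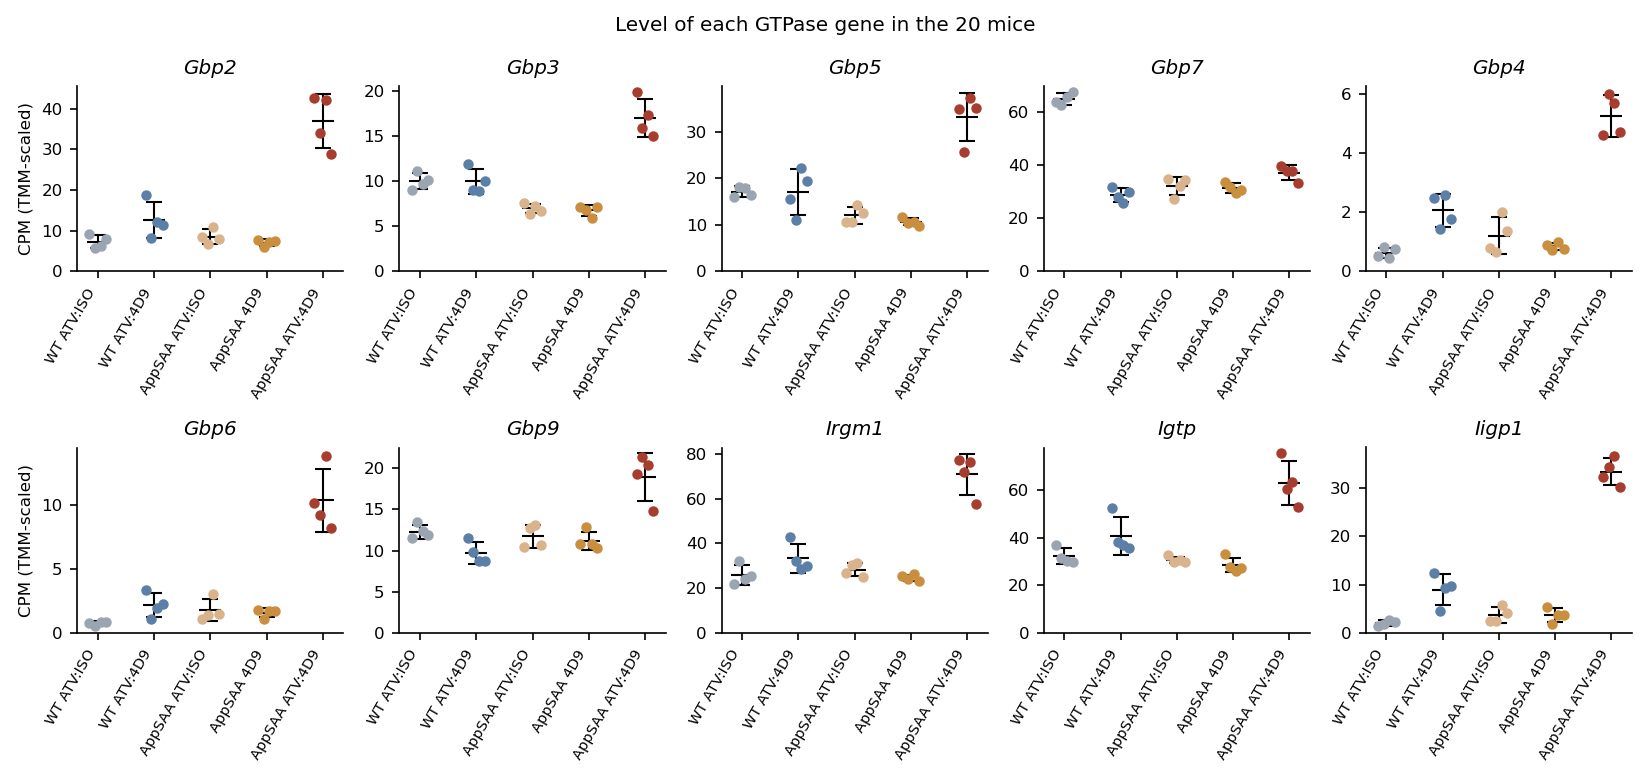
Each panel plots 1 gene, with TMM-scaled CPM on a linear axis from 0, a point for each mouse, a dash for the group mean and bars for 1 SD (n = 4). AppSAA mice given ATV:4D9 sit highest for every gene but Gbp7, whose highest group is WT mice given ATV:ISO, with a mean of 65.1 CPM.

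In WT mice on the CPM scale, 6 of the 10 members rose and 2 fell after ATV:4D9, beside 30.8% of all genes called higher and 32.5% called lower (63.3% in all). Per 1000 cells, a scale not divided by total UMIs and not tested, the mean of 9 of the 10 was higher after ATV:4D9, with Gbp7 alone lower. Median UMIs per cell were also higher after ATV:4D9 (13479 to 17290 against 6859 to 8173.5), so a gene of equal CPM rises on that scale too. The share of all genes that rose on it was not computed. Iigp1 measured 1.44, 1.79, 2.70 and 2.25 CPM after ATV:ISO and 12.3, 4.49, 9.33 and 9.72 CPM after ATV:4D9. Every treated mouse was above every control mouse, and the log2 fold change was 2.11 ± 0.34 (edgeR adjusted p = 1.95e-05). Gbp4 (1.69 ± 0.31) and Gbp6 (1.57 ± 0.37) rose next, also without overlap. Gbp2 measured 9.20, 5.70, 6.28 and 7.90 CPM after ATV:ISO and 18.7, 8.25, 12.2 and 11.5 CPM after ATV:4D9, a rise of 0.80 ± 0.21 with overlapping groups.
The regulatory IRGs Irgm1 (0.37 ± 0.13, edgeR adjusted p = 0.0172) and Igtp (0.35 ± 0.12, edgeR adjusted p = 0.0171) rose little. Without WT ATV:4D9 mouse 1 neither passed (Irgm1 0.23, Igtp 0.20), nor did Irgm1 without WT ATV:ISO mouse 1 (0.30) or Igtp without WT ATV:ISO mouse 4 (0.31). Irgm1 also did not pass thinned to 3000 UMIs per cell (0.32) or with total UMIs as library size (0.25).
Gbp7 went the other way. It measured 63.99, 62.7, 65.8 and 67.8 CPM after ATV:ISO and 31.9, 28.2, 25.7 and 29.9 CPM after ATV:4D9. Every treated mouse was below every control mouse, and the log2 fold change was -1.17 ± 0.083 (edgeR adjusted p = 2.21e-10). Gbp7 was 1 of the 4 members whose groups did not overlap, with Gbp4, Gbp6 and Iigp1, and 55.6% of all genes did not. Gbp9 was also lower (-0.34 ± 0.12, edgeR adjusted p = 0.0183), a call lost without WT ATV:ISO mouse 2 (-0.29) or WT ATV:4D9 mouse 3 (-0.29) or 4 (-0.29), with no filter on low counts (-0.27) or thinned (-0.29). Gbp3 (95% confidence interval -0.23 to 0.22) and Gbp5 (-0.34 to 0.33) did not pass the test, and the sign of their fold change turned with the scaling factor.

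The ATV:4D9 effect differed between the genotypes for 7 of 10 members, all more positive in AppSAA mice, beside 3.79% of all genes called in that direction and 9.14% called in either (1285 genes, and 4284 with the pool as a block). In the direction of the members 533 genes were called, and 2377 with the pool as a block. The difference between the log2 fold changes was 1.47 ± 0.23 for Gbp5, 1.38 ± 0.12 for Gbp7, 1.31 ± 0.29 for Gbp2, 1.29 ± 0.15 for Gbp3, 1.03 ± 0.17 for Gbp9, 0.96 ± 0.18 for Irgm1 and 0.69 ± 0.17 for Igtp. The members with the largest rise in WT mice did not pass this test: the difference was 1.03 for Iigp1 (95% confidence interval 0.081 to 1.98, edgeR adjusted p = 0.184), 0.95 for Gbp6 (-0.075 to 1.97) and 0.36 for Gbp4 (-0.51 to 1.22). Igtp was not called with cells thinned (0.62). The intervals of Iigp1, Gbp6 and Gbp4 are wide and do not show equal effects.
Between the 2 groups given ATV:4D9, all 10 members were higher in AppSAA mice, beside 7.84% of all genes (11.8% called in either direction), with log2 differences from 0.36 ± 0.082 for Gbp7 to 2.24 ± 0.29 for Gbp6. For none of the 10 did the groups overlap, which held for 14.9% of all genes. Of the genes called in this comparison, 1102 of 1661 were higher, and with total UMIs as library size 792 of 2993 were, where 9 of the 10 members stayed called, without Gbp7 (0.23). With the pool as a block 4409 genes were called, 2388 of them higher, and the members' calls did not change. Thinned to 3000 UMIs, Gbp7 was not called (0.25). The genotype difference in effect and this comparison share mice with the comparisons above and are not separate evidence.

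**Figure D2:**
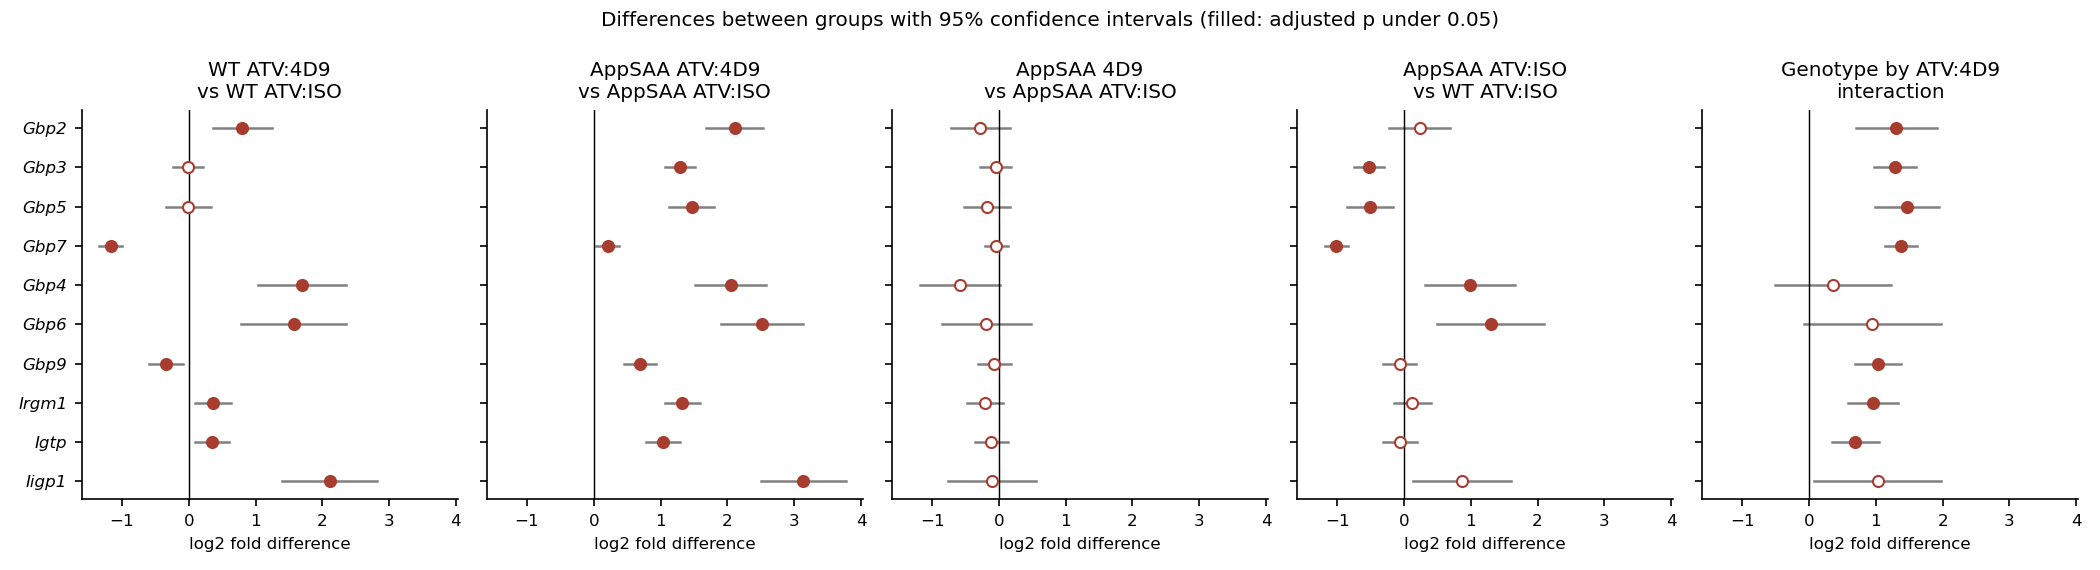
Points are log2 fold differences from edgeR and lines their 95% confidence intervals, filled where the adjusted p is under 0.05, with a panel per comparison. All 10 genes lie right of 0 for ATV:4D9 against ATV:ISO in AppSAA mice, and Gbp7 lies left of -1 where WT ATV:4D9 or AppSAA ATV:ISO is compared with WT ATV:ISO (-1.17 and -1.01).

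4D9 without the vehicle was compared with ATV:ISO in AppSAA mice at the same dose and time. None of the 10 members was called, beside 0.0% of all genes, and none had groups that did not overlap, beside 0.69%. Over all 14058 genes edgeR called 0 and limma voom 0, DESeq2 called 1, and 79 genes had an unadjusted p under 0.05 in edgeR. All 10 log2 fold changes were below 0, from -0.58 (95% confidence interval -1.19 to 0.017) for Gbp4 to -0.037 (-0.21 to 0.13) for Gbp7. The sign was not stable: with cells thinned it was positive for Gbp7 (0.078) and Iigp1 (0.17), and leaving out 1 mouse it reached 0.013 for Gbp3 (without AppSAA 4D9 mouse 3), 0.23 for Gbp6 and 0.20 for Iigp1 (both without AppSAA ATV:ISO mouse 3). The upper bound was highest for Iigp1 (-0.76 to 0.55), which measured 5.30, 1.76, 3.61 and 3.70 CPM after 4D9, overlapping the ATV:ISO mice.
All 10 members were higher after ATV:4D9 than after 4D9, beside 27.6% of all genes (54.3% called in all), and 9 had groups that did not overlap, beside 46.9%. The log2 difference ran from 0.25 ± 0.082 for Gbp7 (edgeR adjusted p = 0.0161) to 3.24 ± 0.31 for Iigp1 (3.59e-08), with 2.64 ± 0.27 for Gbp4 and 2.39 ± 0.21 for Gbp2. The Gbp7 call was lost without AppSAA 4D9 mouse 3 (0.22) or AppSAA ATV:4D9 mouse 1 (0.21), with only cells of 1000 to 25000 UMIs (0.21) or with total UMIs as library size (0.18). With cells thinned to 3000 UMIs the Gbp7 difference was below 0 (-0.028), and without the cells of cluster 5 Gbp7 was called lower (-0.32). This comparison shares its ATV:4D9 mice with the one against ATV:ISO.

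Under ATV:ISO, 2 members were higher in AppSAA than in WT mice, Gbp6 (1.30 ± 0.38 on the log2 scale) and Gbp4 (0.99 ± 0.33), and 3 were lower, Gbp7 (-1.01 ± 0.083), Gbp3 (-0.52 ± 0.11) and Gbp5 (-0.50 ± 0.16). Of all genes, 28.2% were called, 14.4% higher and 13.7% lower. Of the genes called, 2028 of 3960 were higher, and 1512 of 6787 were with total UMIs as library size. With the pool as a block 7166 genes were called, 3026 of them higher. Gbp7 measured 34.8, 27.2, 32.2 and 34.6 CPM in AppSAA and 63.99, 62.7, 65.8 and 67.8 CPM in WT mice. The groups of Gbp7, Gbp3, Gbp5 and Gbp6 did not overlap, beside 27.4% of all genes. Iigp1 (0.87 ± 0.35) did not pass (edgeR adjusted p = 0.0732) but did with the pool as a block (0.0389), and without AppSAA ATV:ISO mouse 1 (1.02) or 2 (1.01).
Only Gbp7 and Gbp3 kept their calls without any 1 mouse. Gbp6 lost its call without WT ATV:ISO mouse 2 (1.16) or AppSAA ATV:ISO mouse 3 (0.87). Gbp4 lost it without WT ATV:ISO mouse 1 (0.91) or 3 (0.86) or AppSAA ATV:ISO mouse 3 (0.62) or 4 (0.94). Gbp5 lost it without WT ATV:ISO mouse 2 (-0.47) or 3 (-0.48) or AppSAA ATV:ISO mouse 1 (-0.45) or 2 (-0.44). limma voom called neither Gbp4 (0.96) nor Gbp6 (1.25), and with cells thinned Gbp3 (-0.085) and Gbp5 (-0.30) were not called.

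The deposited annotation divides the cells into clusters numbered 0 to 5, with no names. All 10 members had their highest mean in cluster 5, given as a description with no test, because the clusters were made from expression. Over mouse sums of at least 20 cells, Iigp1 averaged 129 ± 58.6 CPM in cluster 5 (SD, n = 17 mice) and 5.85 ± 6.22 CPM in cluster 4, the next highest, a ratio of 22.1. These means pool mice of groups that differ in level and in which clusters they fill. Within AppSAA mice given ATV:4D9, Iigp1 averaged 135 ± 14.7 CPM in cluster 5 and 15.02 ± 3.24 CPM in cluster 4, and within WT mice given ATV:4D9 153 ± 42.6 and 3.18 ± 1.30 CPM. Over all mice, the ratio of cluster 5 to the next cluster was 12.4 for Gbp4, 12.4 for Gbp6, 9.39 for Gbp2 and 3.91 to 5.01 for Gbp9, Gbp3, Igtp, Gbp5 and Irgm1. Gbp7 had the lowest ratio, 2.23 to cluster 0. It averaged 124 ± 34.96 CPM in cluster 5, 55.5 ± 9.62 CPM in cluster 0 and 48.3 ± 8.34 CPM in cluster 3. Its levels were lower in cluster 2 (26.5 ± 7.32 CPM), cluster 4 (18.2 ± 6.16 CPM) and cluster 1 (16.3 ± 8.79 CPM), whose SDs overlap. Gbp3 was also lowest in cluster 1 (4.56 ± 2.44 CPM), while Igtp and Irgm1 averaged 24.9 to 35.4 CPM in each of clusters 0 to 4.

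**Figure D3:**
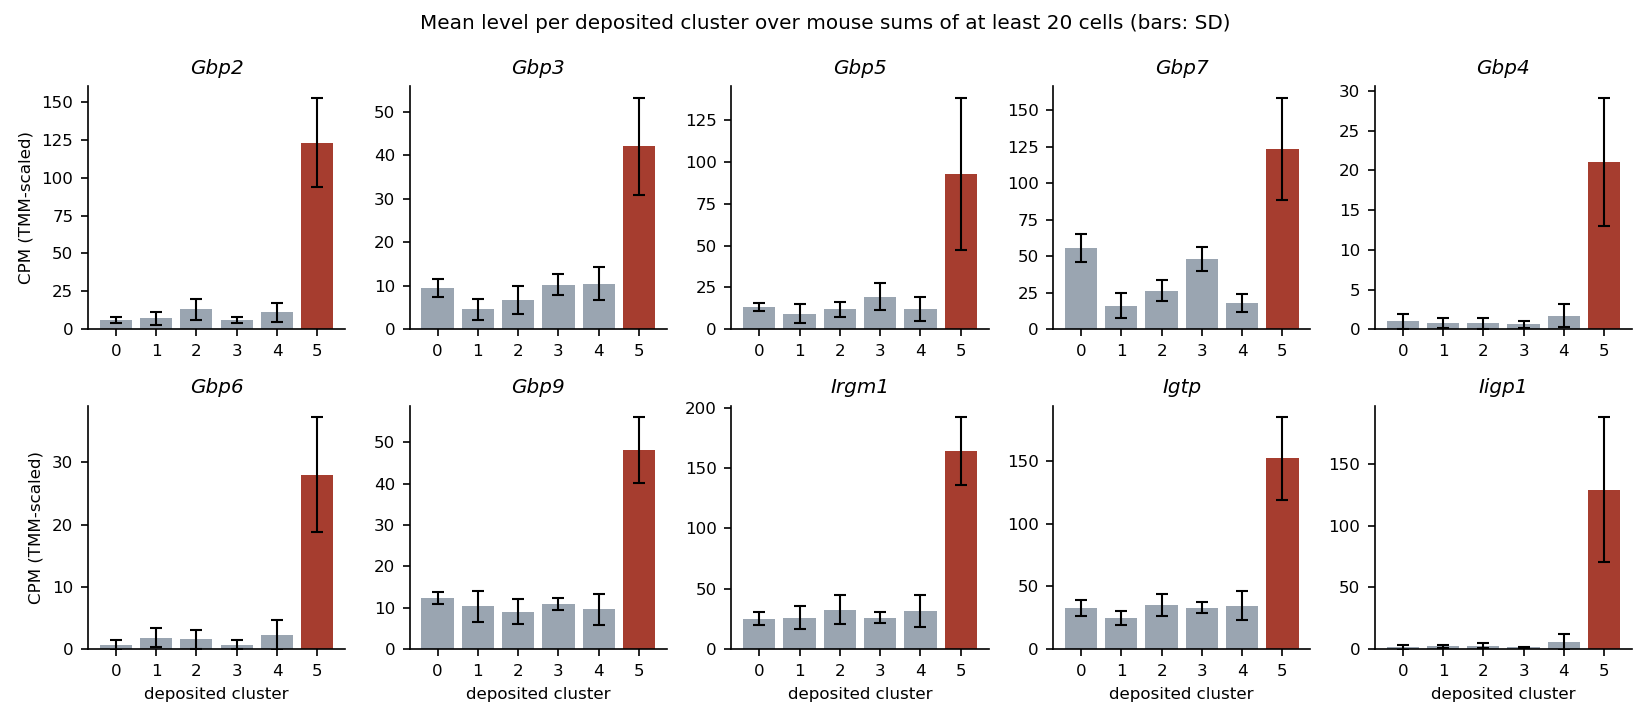
Bars give the mean TMM-scaled CPM of each gene over mouse sums of at least 20 cells in a deposited cluster (16 to 20 mice), with 1 SD, on linear axes from 0. Cluster 5, in red, is highest for every gene, and Gbp7 has the smallest gap to the next cluster, 2.23 times the mean of cluster 0.

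Cluster 5 held a mean of 22.4% of the cells in AppSAA mice given ATV:4D9 (range 18.9% to 28.6%), 4.21% in WT mice given ATV:4D9, 2.48% and 1.50% in AppSAA mice given ATV:ISO and 4D9, and 0.737% in WT mice given ATV:ISO. The members are among the genes that set this cluster apart, so the shares are a description. The cluster held 54.7% of the UMIs of the 10 members together in AppSAA mice after ATV:4D9, 29.3% in WT mice after ATV:4D9 and 5.09% in WT mice after ATV:ISO. For Iigp1 the share was 80.8% in the first of these groups and 51.7% in the last, and for Gbp7 it was 49.6% and 2.37%. Clusters 0 and 3, where Gbp7 was next highest, held 60.4% and 35.8% of the cells of WT mice after ATV:ISO, and 3.11% and 4.56% after ATV:4D9.

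**Figure D4:**
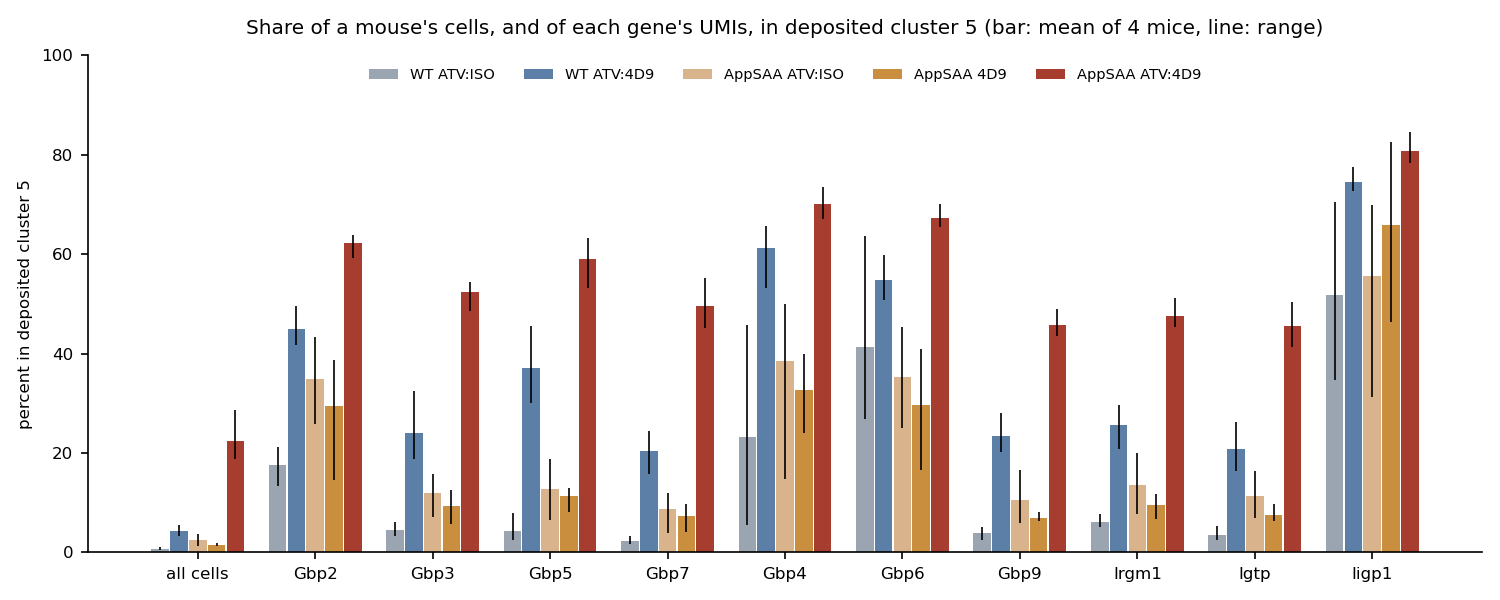
The bars give the mean percent, over 4 mice, of all cells and of each gene's UMIs that lie in deposited cluster 5, and the lines the range over mice, by group. For each gene the bar of AppSAA mice given ATV:4D9 is the tallest, from 45.6% for Igtp to 80.8% for Iigp1, beside 22.4% of their cells.

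The comparisons were repeated without the cells of cluster 5. The members are highest in that cluster and were among the genes available to the clustering, so the calls below are conditional on it. Every member had a lower log2 difference without it for ATV:4D9 against ATV:ISO in both genotypes, for ATV:4D9 against 4D9, and for AppSAA against WT mice given ATV:4D9. Those are comparisons in which the group named first also has the larger share of its cells in this cluster, which favours that direction. In AppSAA mice 9 members were still higher after ATV:4D9 than after ATV:ISO, beside 27.8% of all genes, with Iigp1 at 2.35 and Gbp2 at 1.62 on the log2 scale. Gbp7 was lower (-0.36, edgeR adjusted p = 0.00101), beside 27.2%. The median of the 10 went from 1.39 to 0.80. Against 4D9 the same split appeared, with 9 members higher (27.4% of all genes) and Gbp7 lower (-0.32, beside 26.6%).
In WT mice 2 members stayed higher after ATV:4D9, Iigp1 (1.32) and Gbp6 (1.12), beside 30.8% of all genes. There 4 were lower, Gbp7 (-1.42), Gbp9 (-0.62), Gbp5 (-0.57) and Gbp3 (-0.29), beside 32.3%. Gbp4 (0.76), Gbp2 (0.26), Igtp (0.10) and Irgm1 (0.086) no longer passed.
Between the groups given ATV:4D9, 8 members stayed higher in AppSAA mice (5.42% of all genes), without Gbp7 (-0.028) and Igtp (0.36). The genotype difference in effect stayed called for 6 members (2.47% of all genes), without Igtp (0.52, edgeR adjusted p = 0.0568). That difference was larger without cluster 5 for Gbp2, from 1.31 to 1.36, and for Gbp4, from 0.36 to 0.61 (not called either way), and nearly equal for Iigp1 (1.03 and 1.03, not called either way). Under ATV:ISO, Gbp6 stayed higher in AppSAA mice (from 1.30 to 1.31, beside 14.5% of all genes) and Gbp3, Gbp5 and Gbp7 lower (13.9%), while Gbp4 lost its call (from 0.99 to 0.66, edgeR adjusted p = 0.156).

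**Figure D5:**
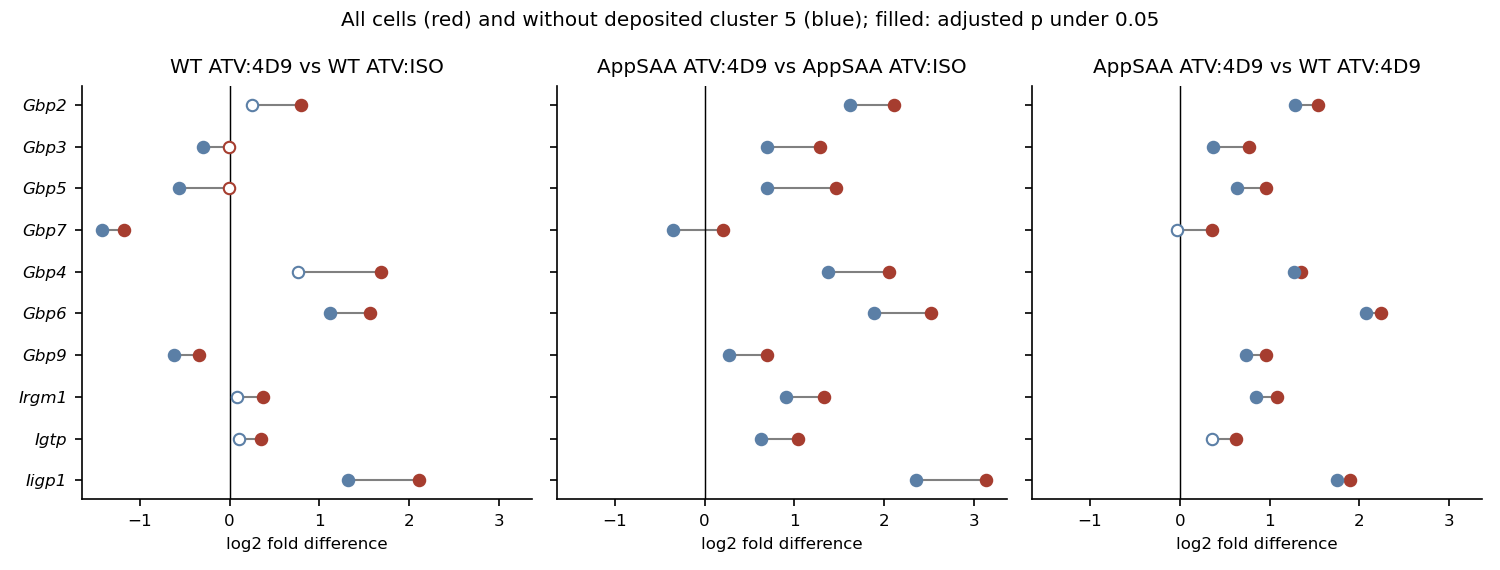
Red points are log2 fold differences over all cells and blue points those without deposited cluster 5, filled where the adjusted p is under 0.05. Every gene lies further left without the cluster in all 3 panels, and Gbp7 crosses 0 for ATV:4D9 against ATV:ISO in AppSAA mice, from 0.21 to -0.36.

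Within clusters the groups were compared on sums per mouse, which asks whether cells given the same number still differed. The members are among the genes available to the clustering, so these values are conditional on it. Of 288 member tests in these fits 45 were called, beside 4.61% of all gene tests in the same fits. With the pool as a block 73 were, beside 8.81%. For 43 of the 45, fits without 1 mouse still tested the gene, and 23 of those passed in every such fit. Cluster 4 held 23 of the 45 calls. Many other genes were called there too, 24.5% and 22.1% of all genes for ATV:4D9 against ATV:ISO and against 4D9 in AppSAA mice. For AppSAA against WT mice given ATV:4D9 it was 2.76%. In clusters 1 and 2 the calls of Irgm1 passed in every such fit, as did Iigp1 against 4D9 in cluster 1 and Gbp2 against WT mice in cluster 2, and the other calls there did not.
In cluster 4, 8 of 10 members were higher in AppSAA than in WT mice given ATV:4D9, beside 2.49% of all genes called higher. Iigp1 measured 15.02 ± 3.24 against 3.18 ± 1.30 CPM (log2 difference 2.20 ± 0.26) and Gbp2 19.3 ± 2.90 against 6.08 ± 1.89 CPM (1.63 ± 0.19). Gbp3 (0.55 ± 0.15) lost its call without several mice (0.50 to 0.60 leaving out 1 mouse). ATV:4D9 against ATV:ISO in AppSAA mice also gave 8 members higher in cluster 4, beside 13.0%, of which Gbp2 (0.90 ± 0.33, edgeR adjusted p = 0.0492) lost the call with the pool as a block (0.0571). Of the 8, only Gbp6 and Igtp passed in every fit without 1 mouse, and Iigp1 (1.56 ± 0.50) was lost without AppSAA ATV:ISO mouse 1, 2 or 3 (1.31 to 2.59 leaving out 1 mouse). Over the mice given ATV:ISO, Gbp6 rested on only 3 UMIs in this cluster and Igtp on 115. Against 4D9, 7 were higher, beside 11.5%, all but Gbp9 also in every fit without 1 mouse. Gbp6 and Iigp1 rested on only 4 UMIs each over the mice given 4D9 in this cluster. Gbp7, which fell in WT mice as a whole, was among the members higher than after 4D9, at 25.04 ± 1.18 against 10.5 ± 2.52 CPM (1.16 ± 0.20).
In cluster 2, 4 of 7 members tested were higher after ATV:4D9 than after ATV:ISO in AppSAA mice (Gbp2, Gbp3, Igtp and Irgm1), beside 6.89%. In WT mice edgeR called none of the 7 there, with log2 differences from -0.70 to 0.33, beside 5.88% of all genes. The test of the difference in effect between the genotypes also called none of the 7 in this cluster. Its values ran from 0.035 to 1.74, and 0.156% of all genes were called, so these calls do not show different effects within cluster 2. In AppSAA mice Irgm1 was also higher than after 4D9 (0.78 ± 0.18, beside 7.3%), and Gbp2 (1.24 ± 0.22) and Irgm1 (0.83 ± 0.14) were higher than in WT mice given ATV:4D9 (beside 1.94%). In cluster 1, Irgm1 (0.77 ± 0.10) and Gbp6 (1.21 ± 0.30) were higher after ATV:4D9 than after ATV:ISO, beside 1.06%, and 5 members were higher than after 4D9, beside 1.26%.
Within cluster 5, edgeR called 29.7% of all genes for ATV:4D9 against ATV:ISO in AppSAA mice and 16.3% against 4D9. It called 6.87% for AppSAA against WT mice given ATV:4D9, and 0.0% for 4D9 against ATV:ISO. Beside these shares there were 6 calls of members, of which 3 passed in every fit without 1 mouse. Gbp5 was the only one called higher after ATV:4D9 than after ATV:ISO in AppSAA mice (0.56 ± 0.21, edgeR adjusted p = 0.0468), beside 15.7% of all genes, a call lost without AppSAA ATV:ISO mouse 1, 2 or 3 or AppSAA ATV:4D9 mouse 1 or 4 (0.45 to 0.71 leaving out 1 mouse). Gbp7 was lower than after 4D9 (-0.76 ± 0.16), at 92.3 ± 10.7 against 147 ± 50.6 CPM, beside 6.72% called lower. Against WT mice given ATV:4D9, AppSAA mice had lower Gbp4 (-0.74 ± 0.19), Gbp5 (-0.68 ± 0.19), Gbp7 (-0.64 ± 0.14) and Igtp (-0.53 ± 0.12) in cluster 5, beside 3.0%, the opposite direction to the sums over all cells. Of these, Gbp7 and Igtp passed in every fit without 1 mouse, while Gbp4 and Gbp5 did not (-0.85 to -0.55 and -0.84 to -0.44).
Gbp7 was lower within clusters 0 and 3 too. In cluster 0 it was lower in AppSAA than in WT mice given ATV:ISO, at 52.5 ± 3.76 against 68.7 ± 1.86 CPM (-0.40 ± 0.089, edgeR adjusted p = 0.0483), beside 0.0513% of all genes. In cluster 3 it was lower after ATV:4D9 than after ATV:ISO in WT mice, at 42.2 ± 8.88 against 60.1 ± 3.74 CPM (-0.45 ± 0.13, edgeR adjusted p = 0.0305), beside 2.02%. Without 1 mouse the cluster 0 value ran from -0.44 to -0.37 and the cluster 3 value from -0.54 to -0.36, and each call was lost without several mice. Within clusters 0, 2 and 3, those in which ATV:4D9 could be tested in WT mice, edgeR called no member higher (9, 7 and 8 members tested), beside 1.02%, 3.19% and 4.15% of all genes (1.47%, 5.88% and 6.17% called in either direction). At an unadjusted p under 0.05 only Gbp2 in cluster 0 was higher (0.70 ± 0.26, edgeR adjusted p = 0.219). These sums are shallow: Gbp2 rested on 38 UMIs over the mice given ATV:4D9 in cluster 0 and on 26 over those given ATV:ISO in cluster 2. ATV:4D9 could not be tested in WT mice within clusters 1, 4 and 5, where fewer than 3 mice of a WT group had 20 cells.

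Related genes and the pathway around the members were read from lists, whose counts stand beside 27.9% of all genes called higher and 27.1% called lower after ATV:4D9 in AppSAA mice, and 30.8% and 32.5% in WT mice. Of 11 other GBP and IRG genes tested, 5 were higher and 3 lower after ATV:4D9 in AppSAA mice (median 0.16), and 4 higher and 4 lower in WT mice (median -0.42), which is not far from those shares. In AppSAA mice Ifi47 (3.09 on the log2 scale), Tgtp2 (2.54) and Gm4951 (1.78), genes of the IRG family, rose most, and Irgc1 (-1.07), Irgq (-0.76) and 9930111J21Rik2 (-0.39) fell.
Of 16 interferon signalling genes, 7 were higher and 5 lower in AppSAA mice, and 4 higher and 7 lower in WT mice, beside the same shares of all genes. Ifnb1, which encodes interferon beta, measured 0.303 ± 0.149 CPM after ATV:ISO and 6.70 ± 2.36 CPM after ATV:4D9 in AppSAA mice (4.33 on the log2 scale), and 0.210 ± 0.146 and 2.50 ± 0.385 CPM in WT mice (3.50). Ifng, which encodes interferon gamma, had 0 to 7 UMIs per group of 4 mice and was not tested. Only sorted CD11b+ cells were sequenced, so this count does not cover Ifng made by other cells. Irf7 (3.16) and Stat2 (1.35), transcription factors of the interferon response, rose in AppSAA mice. Irf1, which drives many GBP genes, rose by 0.54 there and did not pass in WT mice (-0.14, edgeR adjusted p = 0.171). Ifngr1, a chain of the interferon gamma receptor, was lower in AppSAA (-0.57) and WT mice (-1.01).
All 20 type I interferon-stimulated genes of the list rose in AppSAA mice (median 2.74) and 19 rose in WT mice (median 2.16), led by the chemokine Cxcl10 (4.31 and 3.55). Of 11 genes of interferon gamma response and antigen presentation, 4 rose in each genotype (median 0.091 in AppSAA and 0.19 in WT mice), near the 27.9% and 30.8% of all genes called higher. In AppSAA mice 4 fell, the MHC class II genes H2-Aa (-1.26), H2-Eb1 (-1.15) and H2-Ab1 (-0.995) and their transactivator Ciita (-1.64), beside 27.1% of all genes. Against 4D9 3 of the 4 were called lower, without Ciita (-1.05). In WT mice edgeR called 0 of the 11 lower, also at an unadjusted p under 0.05, beside 32.5%, with H2-Aa at -0.19 and Ciita at 0.034. The test of the difference in effect between the genotypes called 1 of the 11 higher and 1 lower, with 9 not called. Of all genes it called 3.79% higher and 5.35% lower. The genotypes did not start from equal levels. Under ATV:ISO, 9 of the 11 were higher in AppSAA than in WT mice (median 2.35), beside 14.4% of all genes. Under ATV:4D9, 10 of the 11 still were (median 1.27), beside 7.84%. The type I list was higher in AppSAA mice too, beside the same shares. Of its 20 genes, 15 were called higher under ATV:ISO (median 0.77) and 20 under ATV:4D9 (median 1.59). Of 17 genes for ATG conjugation and inflammasomes, which act with GBPs and IRGs at vacuoles, Zbp1 (2.88), Casp4 (0.60) and Casp1 (0.24) rose in AppSAA mice and 7 fell. In WT mice Zbp1 alone of these rose (2.36) and 11 fell. Of all genes, 27.9% were called higher and 27.1% lower in AppSAA mice, and 30.8% and 32.5% in WT mice. In both genotypes the list held a smaller share called higher and a larger share called lower than all genes, with no test of that. Its median was -0.16 in AppSAA and -0.28 in WT mice, beside -0.028 and -0.051 over all genes.

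Over 20 mice, with group means removed, the correlation of a member with the mean of the other 9 ran from 0.26 for Gbp5 to 0.77 for Gbp2, with Gbp9 (0.36) and Gbp7 (0.48) next lowest. Among 8021 genes, those most like the mean of the members were Plaat3 (r = 0.93), Isg20 (0.90), Fgl2 (0.86), Mov10 (0.85), Ifi209 (0.83), Gm4951 (0.83), Dhx58 (0.81), Ly6e (0.80), Rsad2 (0.80) and Usp18 (0.79). Mice of a pool share library and batch, so these values describe the libraries and have no p.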

How the data were processed

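Reads had been aligned by the authors to mm10 (Cell Ranger 6.1.1), cells assigned to mice by multiplexing tags, and clusters made in Seurat. The deposited matrix holds UMI counts per gene and cell without normalization, and the deposited annotation gives each cell's group, pool, cluster and mitochondrial percent, which was not used. In WT mice the mean mitochondrial percent was 1.086 to 1.576 after ATV:ISO and 1.273 to 2.054 after ATV:4D9, higher in every pool. In AppSAA mice pool 1 went the other way (1.366 and 1.341). The part of this in the results was not tested. The counts of all 74758 cells matched the deposited totals, and 543 of 74212 barcode sequences occurred in more than 1 pool. How the authors filtered cells and treated doublets is not given in the sources used here, and no cell was removed.

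For each mouse, counts were added over all cells or over the cells of a cluster (at least 20 cells and 3 mice a group). The main test was the edgeR 4.0.16 quasi-likelihood test in R 4.3.3 (filterByExpr, TMM, all 5 groups in 1 fit, Benjamini-Hochberg over 14058 genes, called under 0.05). The edgeR test returns no standard error. The SE printed with a log2 fold change is its size divided by the square root of the test's F statistic. Confidence intervals were built from that SE and are not adjusted for the number of genes. limma 3.58.1 voom, used by the study, and DESeq2 1.42.0 were alternatives. On simulated counts for WT ATV:4D9 against WT ATV:ISO, edgeR recovered 83.5% of 200 genes changed 2-fold, and 4.02% of its calls were false. The simulated counts had no pool effect and few changed genes, while edgeR called 63.3% of genes in the data. The simulation therefore does not give the rate of false calls in these data. Mice of a pool deviated together (40 of 40 pairs, r of 0.143 to 0.607), so the pool, numbered in the labels, pairs mice. The main fit has no term for the pool. Its p-values therefore measure the spread between mice with differences between pools included.

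All 10 members were described in every comparison. From the lists, counts and called genes at either end were named, and similar genes were the 10 with the highest Pearson r among genes with a mean of at least 10 CPM. The members, lists and rules were chosen with earlier results of these data known. Levels were first computed per total UMIs and changed to the TMM scale after the values had been seen, because the scales gave different differences for some members.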

Additional observations from a re-analysis of the deposited data

Results flagged for a closer look

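The ATV:4D9 effect differed between genotypes in the edgeR test of the difference for 7 members, with AppSAA minus WT values of 1.31 for Gbp2, 1.29 for Gbp3, 1.47 for Gbp5, 1.38 for Gbp7, 1.03 for Gbp9, 0.96 for Irgm1 and 0.69 for Igtp on the log2 scale. Single mice stood apart from the other 3 of their group by Dixon's criterion in 2 of 50 tests on the TMM-scaled levels. These were the lowest Gbp6 level after 4D9 in AppSAA mice (1.10 CPM) and the highest Igtp level after ATV:4D9 in WT mice (52.8 CPM). On CPM of total UMIs, the scale used first, 3 other values stood apart: Gbp6 after ATV:4D9 (13.1) and Irgm1 after 4D9 (26.5) in AppSAA mice, and Igtp after ATV:ISO in WT mice (39.1). Chance alone marks about 1 in 20 groups, and no value stood apart on both scales.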

How the results depend on the processing

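Of the values for single members under an alternative, 1550 kept direction and side of the threshold, 139 lost the call, 6 gained it and 30 changed sign. Of the counts of members called, that for AppSAA against WT under ATV:ISO moved by over 1.5 times, from 5 to 3 with limma voom, 3 with cells thinned to 3000 UMIs, and 3 to 5 leaving out 1 mouse. The 45 calls within clusters became 73 with the pool as a replicate block and 36 to 48 leaving out 1 mouse. Over all cells the block changed no member's call but that of Iigp1 given in the report. Over all genes, the number called for AppSAA against WT under ATV:ISO went from 3960 to 7166 with the block, 6787 with total UMIs and 1699 thinned. Under ATV:4D9 it went from 1661 to 4409, 2993 with total UMIs, 976 without cluster 5 and 1103 without AppSAA ATV:4D9 mouse 3. For the difference in effect it went from 1285 to 4284 with the block and 363 thinned.

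The sign turned for Gbp3 and Gbp5 in WT ATV:4D9 against ATV:ISO with DESeq2's size factors (0.032 and 0.034), no filter on low counts (0.067 and 0.067), DESeq2 (0.032 and 0.034), thinning (0.29 and 0.063) and leaving out 1 mouse (-0.10 to 0.052 and -0.16 to 0.16). Under ATV:ISO between genotypes it turned for Gbp2 without cluster 5 (-0.084), Gbp9 thinned (0.020), Irgm1 with total UMIs (-0.058) and Igtp leaving out 1 mouse (-0.094 to 0.013). For 4D9 against ATV:ISO it turned for Gbp7 (0.078) and Iigp1 (0.17) thinned, and leaving out 1 mouse for Gbp3 (-0.088 to 0.013), Gbp6 (-0.34 to 0.23) and Iigp1 (-0.31 to 0.20). None of these was called either way. Gbp7 turned without cluster 5 for ATV:4D9 in AppSAA mice against ATV:ISO (-0.36), 4D9 (-0.32) and WT mice (-0.028), and against 4D9 when thinned (-0.028). Total UMIs as library size, an alternative chosen after seeing the data, moved the median of all genes from -0.056 to -0.24 (AppSAA against WT under ATV:ISO), from -0.051 to -0.17 (WT ATV:4D9) and from -0.0068 to -0.15 (AppSAA against WT under ATV:4D9). The causes were not tested.

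Depth limits Gbp4 and Gbp6 most, with means of 0.622 and 0.728 CPM in WT mice given ATV:ISO. Shared barcodes and doublets were not removed.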

Other observations

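UMIs per 1000 cells, a scale that is not divided by the total UMIs of a mouse, gave Gbp7 as 626 ± 95.9 (SD, n = 4) after ATV:ISO and 496 ± 58.4 after ATV:4D9 in WT mice, and as 364 ± 63.8 and 590.3 ± 28.5 in AppSAA mice. Gbp9 measured 118 ± 15.8 and 165 ± 8.74 in WT mice on this scale, the opposite direction to that in CPM. Gbp3 measured 96.2 ± 14.99 and 171 ± 22.1, without overlap, and Gbp5 164 ± 23.6 and 299.5 ± 112 in the same mice, where neither passed the test in CPM. Iigp1 measured 42.95 ± 22.7 and 531 ± 46.6 in AppSAA mice. These differences were not tested, and the share of all genes that moved on this scale was not computed. Median UMIs per cell of WT mice were 6859 to 8173.5 after ATV:ISO and 13479 to 17290 after ATV:4D9. A gene of equal CPM therefore rises per 1000 cells, and the rise of Gbp3 is not a result about that gene.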
